A study of Mus musculus with 15 samples.

Results

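The ankyrin repeat and SOCS box (Asb) genes described here were 8 members of the family that are known from striated muscle or were abundant in these ventricles: Asb2, Asb5, Asb8, Asb10, Asb11, Asb14, Asb15 and Asb18. They were selected on their symbols with results from these 15 hearts in view, among the 16199 genes of the expression table. Their levels and their differences between the groups are therefore given as a description, without p-values. Where a member is said to be called, this states only on which side of the threshold it fell in the fit across all genes, and nothing is supported with it. Another 9 Asb genes are in the table and serve for comparison.

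RNA-seq of poly(A)+ RNA was performed on ventricles of adult FVB mice aged 14 to 16 weeks, 1 library per animal. Induced mice carried MHCrtTA, a transactivator expressed from a cardiac myosin heavy chain promoter, together with TRECUGBP2, a Tet-responsive human CELF2 transgene. They received doxycycline at 2 g/kg in the food for 12 h, 24 h, 72 h or 7 d (n = 3 hearts each). The 3 control mice carried MHCrtTA alone and received the same food for 72 h, so that transactivator and doxycycline were common to all groups, and no control was taken at the other times. Because the promoter is that of a cardiomyocyte gene, the transgene is driven in cardiomyocytes, while the libraries were made from whole ventricle.

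ASB proteins are substrate adaptors of ubiquitin ligases. Their ankyrin repeats bind the protein to be ubiquitinated, and the SOCS box binds elongins B and C and cullin 5, which carries the RING protein RNF7. Attachment of NEDD8 to the cullin switches the ligase on, and the COP9 signalosome removes it. ASB2 is the best known adaptor in muscle, where it directs filamins to the proteasome.

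Levels are RPKM values (reads scaled to the length of a gene's constitutive coding sequence and to the mapped reads of the library) and can be compared between genes. Log2 changes were taken from 1 limma fit to log2(RPKM + 0.5) of all 5 groups, and a gene was called where the Benjamini-Hochberg adjusted p was under 0.05. The table holds no totals of reads, so the depth is unknown and the spread between hearts is the only measure of precision. Celf2, the induced gene, averaged 9.82 ± 1.37 RPKM in control hearts and 324 ± 54.8 RPKM at 7 d (SD, n = 3 each). Every induced heart exceeded every control heart at all 4 times (p = 0.1 in an exact permutation test, two-sided, the lowest value possible with 3 hearts against 3). The transgene is human and reads were mapped to the mouse genome, so this level counts transgene reads only where they map to mouse Celf2. A code in the sample titles splits the hearts into 3 sets, called A, B and C here, and its meaning is not stated. Set A held 2 hearts of the 72 h group and 1 of each other group. Set B held the remaining hearts of the control, 12 h and 24 h groups, and set C those of the 72 h and 7 d groups. Control hearts and hearts of 72 h or 7 d thus share set A alone, with 1 control heart. Fits with set as a covariate join these groups only through set A. Of the 3 hearts per group, Y-linked mRNAs were found in 1 control heart, in 0 of the 12 h group, in 2 of the 24 h group and in all 3 of both later groups. Within set A they were found in the 72 h and 7 d hearts and not in the control, 12 h or 24 h heart. The cardiomyocyte markers summed to between 40724 and 50576 RPKM in every heart. The 11 skeletal fibre markers summed to between 76.1 and 124 RPKM. Of these, Myh1 and Myh4 averaged 46.0 and 41.0 RPKM, Atp2a1 7.62, Actn3 2.37, Myh2 1.22 and Mylpf 0.937 RPKM, while Tnnt3, Tnni2, Tnnc2, Pvalb and Myod1 stayed under 1 RPKM in every heart.

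The 250 bases before the RefSeq start (GRCm38.p6) are shown for Asb14, Asb5 and Asb11, the 3 members called lower at 7 d. They are also shown for Asb2, which was not called but whose 3 hearts at 7 d were all above the controls. Asb15, whose 7 d hearts all lay below the controls, was not called and is not shown. Capitals mark matches on either strand to CATTCC (the TEAD motif), TATAAA, MEF2 and CArG, the last 2 being motifs of muscle transcription factors searched in their 10-letter consensus forms. For Asb5 and Asb2 the most upstream of several annotated starts is shown. The last 24 bases shown for Asb14 lie past the first annotated start of that gene, and 41 such bases were left off the end of the Asb11 window. The windows are chr14:26894364-26894613 (plus strand) for Asb14, chr8:54550081-54550330 (plus) for Asb5, chrX:164436744-164436952 (plus) for Asb11 and chr12:103356002-103356251 (minus) for Asb2.
Asb14: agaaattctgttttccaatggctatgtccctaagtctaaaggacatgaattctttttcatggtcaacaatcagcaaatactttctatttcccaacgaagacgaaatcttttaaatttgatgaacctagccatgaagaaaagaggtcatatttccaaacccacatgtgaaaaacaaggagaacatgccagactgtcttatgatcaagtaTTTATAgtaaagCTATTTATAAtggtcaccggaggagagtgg
Asb5: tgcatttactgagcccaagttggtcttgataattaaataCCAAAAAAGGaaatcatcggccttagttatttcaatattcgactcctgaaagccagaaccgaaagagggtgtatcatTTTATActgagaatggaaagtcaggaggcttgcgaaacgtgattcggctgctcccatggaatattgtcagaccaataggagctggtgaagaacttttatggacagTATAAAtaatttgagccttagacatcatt
Asb11: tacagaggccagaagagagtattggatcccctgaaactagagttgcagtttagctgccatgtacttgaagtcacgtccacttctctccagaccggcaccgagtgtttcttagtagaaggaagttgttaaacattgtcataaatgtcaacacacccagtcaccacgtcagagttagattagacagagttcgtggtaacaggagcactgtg
Asb2: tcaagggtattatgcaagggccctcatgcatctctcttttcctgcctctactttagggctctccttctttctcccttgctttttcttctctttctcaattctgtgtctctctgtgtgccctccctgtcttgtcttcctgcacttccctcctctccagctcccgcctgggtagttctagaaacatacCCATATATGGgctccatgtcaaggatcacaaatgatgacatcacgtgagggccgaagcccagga

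Asb14 held a MEF2 match that began 30 bases before the start and overlapped a TATAAA match at 27 bases, with another TATAAA match at 42 bases. Asb5 held TATAAA matches at 29 and 134 bases and a CArG match at 211 bases before the start. Asb11 held none of these 4 motifs. Asb2 held a CArG match at 64 bases. Among all 32851 promoter windows of the same length, 2.92% held a MEF2 match, 1.47% a CArG match, 12.4% TATAAA and 12.6% CATTCC. Of the other 4 genes, Asb18 held a MEF2 match at 11 bases that overlapped a TATAAA match at 8 bases. Asb15 held a TATAAA match at 167 bases and Asb10 a CATTCC match at 159 bases, while the most upstream window of Asb8 held none of the marked motifs. Among the windows of further annotated starts, 1 of Asb5 held a MEF2 match at 81 bases. That of Asb8 held a CATTCC match at 108 bases, and that of Asb2 none of the marked motifs. These matches describe the letters only, and absence from a window says nothing about binding elsewhere.

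CELF proteins bind GU-rich RNA, often in 3′ untranslated regions, where such elements are known to shorten the life of an mRNA. The GU-rich element was searched as TGTTTGT on the transcript strand of the longest annotated 3′ untranslated region of each member (mm9), and in its longer form as tgtttgtttgt. Asb8 held 3 overlapping copies of the short and 2 of the long form within 1169 bases, and Asb15 held 1 copy of the short form within 2388 bases. The other 6 genes held neither form, in regions of 240 bases (Asb14), 340 bases (Asb18), 396 bases (Asb2), 422 bases (Asb11), 475 bases (Asb5) and 815 bases (Asb10). The 2 stretches are shown with the element in capitals, at chr15:97965437-97965465 (minus strand) in Asb8 and chr6:24522882-24522910 (plus strand) in Asb15.
Asb8: ttggtttTGTTTGTTTGTTTGTttttgtt
Asb15: tagtaatatctTGTTTGTaaattttgtta

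Among 9312 tested genes with an annotated 3′ untranslated region, 27.5% held the short and 3.8% the long form. Among the 1354 of these with a region within 20% of the length of that of Asb8, 2.51% held the long form. Whether the element bears on the level of any of these mRNAs was not tested.

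In control hearts Asb2 was the most abundant of the 8 mRNAs at 130 ± 14.0 RPKM (SD, n = 3). Asb11 followed with 91.4 ± 2.85 RPKM, then Asb10 with 46.1 ± 4.66 and Asb14 with 43.9 ± 2.49 RPKM, whose hearts overlapped. Asb8 had 31.0 ± 4.77 RPKM, Asb15 17.8 ± 1.35, Asb5 11.8 ± 2.10 and Asb18 6.35 ± 1.64 RPKM, and no other neighbours in this order overlapped. After 7 d the order had changed below Asb10. Asb8 (32.7 ± 4.30 RPKM) then stood above Asb14 (14.6 ± 1.59), which overlapped Asb15 (14.2 ± 1.32), and Asb18 (4.40 ± 0.447) overlapped Asb5 (3.88 ± 1.05), the lowest of the 8. The summed level of the 8 genes was 378 ± 21.4 RPKM in control hearts and 364 ± 27.0 RPKM at 7 d (SD, n = 3 each). The sum thus stayed within the spread between hearts while its makeup shifted towards Asb2.

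**Figure D1:**
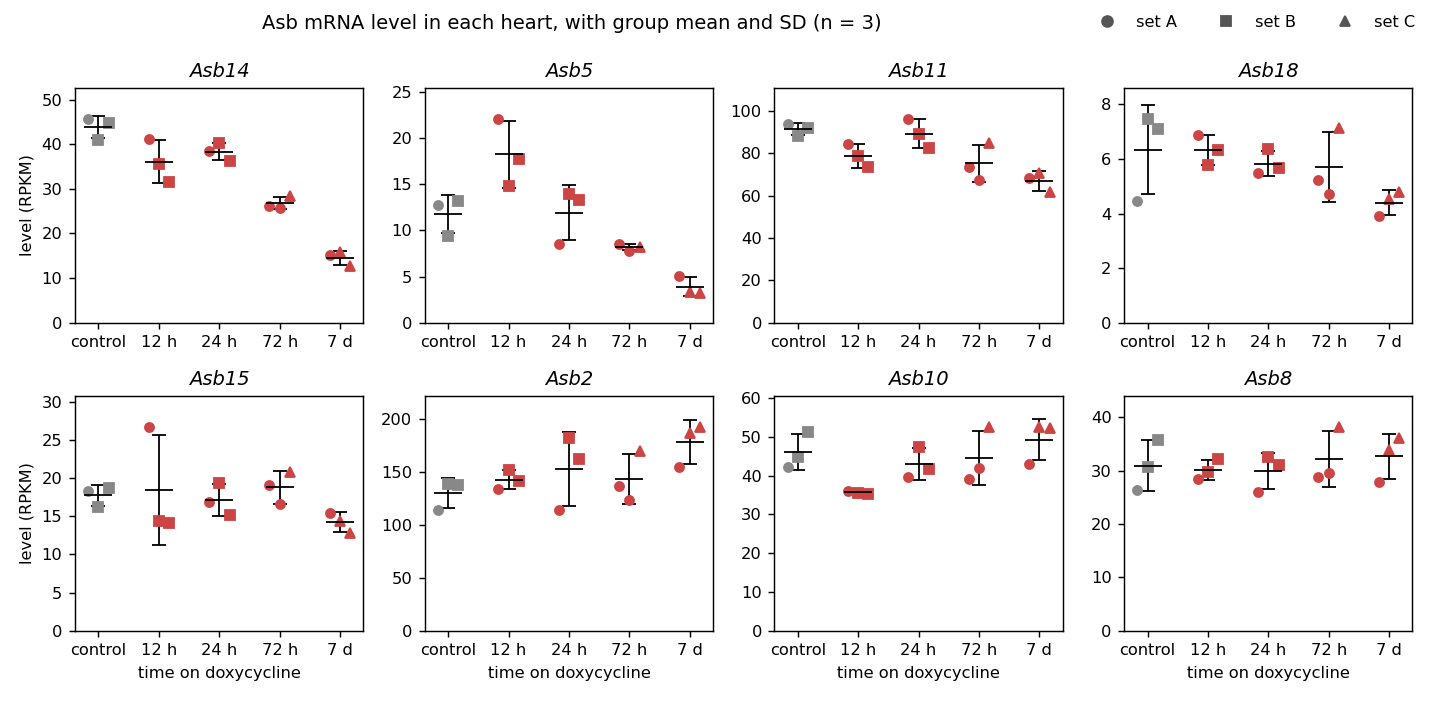
Level of each Asb mRNA in RPKM (vertical axes, from 0) in every heart of the 5 groups (horizontal axes); points are hearts (circles set A, squares set B, triangles set C; grey control, red induced) and bars give the mean and SD of 3 hearts. Asb14 and Asb5 at 7 d lie below every heart of the other groups, with 7 d means of 14.6 and 3.88 RPKM.

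All 8 genes passed the minimum mean of 1 RPKM. At 7 d, limma called 3 of the 8 (Asb14, Asb5 and Asb11), all lower, beside 9.99% of the 10557 genes called in either direction and 4.16% called lower. At 72 h it called Asb14 alone, also lower, beside 0.597% of all genes (0.36% lower). At 12 h and 24 h none of the 8 was called, where limma called 0.388% and 0.0947% of all genes. At an unadjusted p under 0.05 the numbers of members were 3 and 0, beside 1294 and 972 of the 10557 genes. Nothing is read from these counts, since the genes were chosen from these comparisons. The median log2 change of the 8 genes moved from -0.02 at 12 h and -0.05 at 24 h to -0.09 at 72 h, and reached -0.38 at 7 d. Over all genes tested it was -0.10, -0.10, -0.08 and 0.03.

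Asb14 and Asb5 had the largest differences, with 7 d means of 0.332 and 0.33 of control. Asb14 encodes an adaptor known mainly for its expression in striated muscle, and its substrates are not well established. Its level was 45.75, 41.05 and 44.85 RPKM in the control hearts. At 12 h it was 41.23, 35.61 and 31.48 RPKM and at 24 h 38.49, 40.21 and 36.32 RPKM, with 1 of the 12 h hearts inside the control range and every 24 h heart just below it. It was 26.23, 25.81 and 28.30 RPKM at 72 h, and 15.16, 15.76 and 12.76 RPKM at 7 d. Every 72 h heart was below every control, 12 h and 24 h heart, and every 7 d heart below every 72 h heart. The mean at 72 h was 0.61 and at 7 d 0.332 of the control mean, with log2 changes of -0.70 ± 0.11 and -1.56 ± 0.11 (SE).

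The time course of Asb14 could be followed in set A alone, which holds 1 control heart. There the log2 difference from that control widened from -0.15 (12 h) and -0.25 (24 h) to -0.80 (72 h) and -1.56 (7 d). In set A only the 72 h and 7 d hearts had Y-linked mRNA, so late time and Y-linked mRNA cannot be told apart there. In set B, with 2 control hearts, the 12 h value was -0.35 and the 24 h value -0.17. The 7 d value within set A compares 1 heart with 1 control heart. It equalled the pooled value to 2 decimals, but both hearts are also part of the pooled value. With Y-linked mRNA as a covariate the log2 changes of Asb14 were -0.71 at 72 h, where the gene was then not called, and -1.58 at 7 d. The 72 h call also ended in the fit of the compared groups alone and without any single control heart or either set A heart of 72 h, with log2 changes between -0.75 and -0.67 when a heart was left out.

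Asb5 reached a similar difference at 7 d but from a different course. Its product is an adaptor of skeletal and cardiac muscle that has also been described in growing arteries. In control hearts it had 12.80, 9.36 and 13.17 RPKM. At 12 h the level was 22.12, 14.83 and 17.77 RPKM, above every control heart, a log2 difference of 0.61 ± 0.21 (SE) that was not called. At 24 h it was 8.48, 13.97 and 13.26 RPKM, overlapping the controls on both sides. It was 8.50, 7.82 and 8.23 RPKM at 72 h, below every control heart, and 5.09, 3.34 and 3.22 RPKM at 7 d, below every heart of the other groups. The mean at 7 d was 0.33 of the control mean, and the log2 change -1.50 ± 0.21 (SE).

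Within set A the log2 difference of Asb5 from the control heart was 0.77 (12 h), -0.57 (24 h), -0.62 (72 h) and -1.25 (7 d). Here too the 72 h and 7 d hearts differed from the control heart in Y-linked mRNA. In set B the 12 h value was 0.53 and the 24 h value 0.28, so the sign at 24 h differed between the sets. Fitted with set as a covariate, the 7 d log2 change was -1.31, and with Y-linked mRNA it was -1.80. Asb5 was called at 7 d in both of these fits.

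Asb11 is an adaptor located at the endoplasmic reticulum that is known from muscle progenitors. Its level was 93.88, 88.27 and 91.98 RPKM in control hearts and 68.08, 70.73 and 61.53 RPKM at 7 d. At 12 h it was 84.39, 78.43 and 73.34 RPKM, below the controls, but at 24 h it was 96.27, 88.89 and 82.58 RPKM and overlapped them. At 72 h, with 73.68, 67.22 and 84.71 RPKM, all hearts were again below the controls. The differences were smaller than those of Asb14 and Asb5, with log2 changes of -0.29 ± 0.10 at 72 h and -0.45 ± 0.10 at 7 d (SE). The gene lies on chromosome X, and with Y-linked mRNA as a covariate its 7 d log2 change was -0.40 and it was not called, nor was it without the 7 d heart at 61.53 RPKM (-0.39). With set as a covariate the values were -0.41 at 72 h and -0.61 at 7 d, and it was called at both times.

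**Figure D2:**
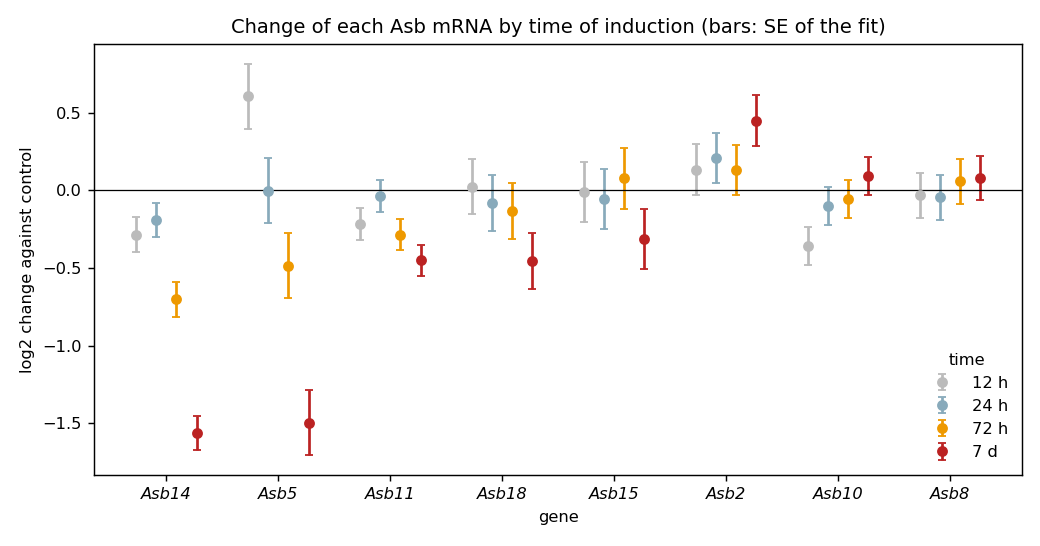
Log2 change against control (vertical axis) of the 8 Asb mRNAs (horizontal axis) at the 4 times of induction; points are limma estimates from 3 hearts per group and bars their SE. Asb14 and Asb5 reach -1.56 and -1.50 at 7 d, and Asb5 starts at 0.61 at 12 h.

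Asb18, a little-studied adaptor, and Asb15, linked to protein turnover and differentiation of muscle cells, had lower means at 7 d without being called. Asb18 had 4.46, 7.48 and 7.10 RPKM in control and 3.91, 4.52 and 4.78 RPKM in 7 d hearts. These ranges overlapped through the set A control heart, and the log2 difference was -0.45 ± 0.18 (SE). Without that heart it was -0.67 and was called, and it was also called with both scalings between hearts (-0.48 with median-ratio and -0.49 with upper-quartile scaling). Asb15 had 18.37, 16.21 and 18.68 RPKM in control and 15.42, 14.41 and 12.80 RPKM in 7 d hearts, which did not overlap, and the log2 difference was -0.31 ± 0.19 (SE). Its 12 h hearts were spread widely, with 26.72 RPKM in set A against 14.38 and 14.11 RPKM in set B. Without the set A heart the 12 h difference of Asb15 moved from -0.01 to -0.31.

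Asb2 was the only 1 of the 8 genes whose 7 d hearts were all above the controls. It had 113.93, 138.91 and 137.49 RPKM in control hearts and 154.09, 187.00 and 192.41 RPKM at 7 d. The 12 h (134.19, 151.93 and 140.92 RPKM), 24 h (113.93, 181.54 and 162.44 RPKM) and 72 h hearts (136.16, 123.67 and 169.63 RPKM) overlapped the controls. The log2 difference at 7 d was 0.45 ± 0.16 (SE) and was not called. With set as a covariate it was 0.44 and was called, as it was with both scalings between hearts, whereas with Y-linked mRNA as a covariate it was 0.21 and was not called. Within set A the 7 d difference was 0.43, between hearts that also differed in Y-linked mRNA.

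Asb10, which has been linked to glaucoma in humans, and Asb8 had the smallest differences at 7 d. Asb10 had 42.25, 44.66 and 51.26 RPKM in control hearts and 43.05, 52.55 and 52.15 RPKM at 7 d, and the log2 difference of 0.09 ± 0.12 (SE) turned to -0.05 with set and -0.04 with Y-linked mRNA as a covariate. At 12 h, however, its level was 36.04, 35.56 and 35.35 RPKM, below every control heart. That difference was -0.36 ± 0.12 (SE) and was called only with set as a covariate and with either kind of library weights. Asb8 had 26.31, 30.76 and 35.84 RPKM in control and 27.90, 33.93 and 36.23 RPKM in 7 d hearts. Its log2 differences lay between -0.04 and 0.08 at the 4 times, each with an SE of 0.14, and the sign of the 7 d difference turned with Y-linked mRNA as a covariate (-0.12).

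Part of the spread followed the set. For Asb2 and Asb8 the set A hearts were below the other hearts in all 5 groups, and for Asb10 and Asb18 in 4 of 5. For Asb14 and Asb5 this was so in 1 of 5 groups each. The part of the set in the differences was not tested beyond the covariate fits and within-set values above.

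Groups that did not overlap were counted at each time for the 8 genes. At 12 h Asb10 and Asb11 lay wholly below the controls and Asb5 above them, where 13.2% of all genes lay below and 3.31% above. At 24 h only Asb14 lay below (14.5% of all genes) and none above (2.77%). At 72 h Asb5, Asb11 and Asb14 lay below (10.8%) and none above (7.35%). At 7 d Asb5, Asb11, Asb14 and Asb15 lay below (13.4%) and Asb2 above (18.3%).

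Between successive times, the largest differences came last. From 72 h to 7 d limma called 2 of the 8 genes, both lower, Asb14 (log2 change -0.86 ± 0.11 SE) and Asb5 (-1.01 ± 0.21 SE), beside 2.52% of all genes called and 0.777% called lower. From 12 h to 24 h and from 24 h to 72 h none of the 8 was called, beside 0.559% and 0.654% of all genes. At an unadjusted p under 0.05 there were 1 and 3 members, beside 713 and 1154 of all 10557 genes. The Asb14 difference from 24 h to 72 h was -0.51 ± 0.11 (SE) and its ranges did not overlap. The Asb5 difference from 12 h to 24 h was -0.61 ± 0.21 (SE), again without overlap.

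Over the 15 hearts, the levels of Asb14 correlated with those of Asb11 (Pearson r = 0.87) and of Asb5 (r = 0.86) on the log2 scale, and Asb2 correlated with Asb8 (r = 0.72) and inversely with Asb14 (r = -0.56). These are descriptions, since the hearts share time points and sets. Outside the family, the genes most like Asb14 over the 15 hearts were Eif3m, a subunit of a translation initiation factor (r = 0.98, 71.9 RPKM in control and 26.5 RPKM at 7 d), 9030617O03Rik (r = 0.97) and Yipf7, a membrane protein of the Golgi (r = 0.97, 76.6 and 29.1 RPKM). Those most like Asb5 were Mrgprh, a G protein-coupled receptor (r = 0.94, 4.80 and 1.49 RPKM), Itgb6, an integrin subunit (r = 0.93, 2.76 and 0.527 RPKM), and 1700040L02Rik (r = 0.93).

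The 8 genes lie on 8 chromosomes, so no pair are neighbours. In mm9, Asb14 lies at chr14:27707790-27728443 (plus strand), Asb5 at chr8:55635684-55673189 (plus), Asb11 at chrX:160874926-160897102 (plus) and Asb2 at chr12:104559352-104594211 (minus). No exon of the 8 genes overlaps an exon of another annotated gene. Of the neighbouring coding genes that could be tested, Appl1 beside Asb14 had a log2 change of -0.01 at 7 d, Vegfc beside Asb5 -0.17 and Otub2 beside Asb2 -0.11. None of these was called (limma, adjusted p = 0.987, 0.495 and 0.756), nor were Pfkm beside Asb8 (-0.05, adjusted p = 0.831) and Ndufa5 beside Asb15 (0.12, adjusted p = 0.711). Asb9, next to Asb11 on chromosome X, was listed at 0 in control and 7 d hearts.

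**Figure D3:**
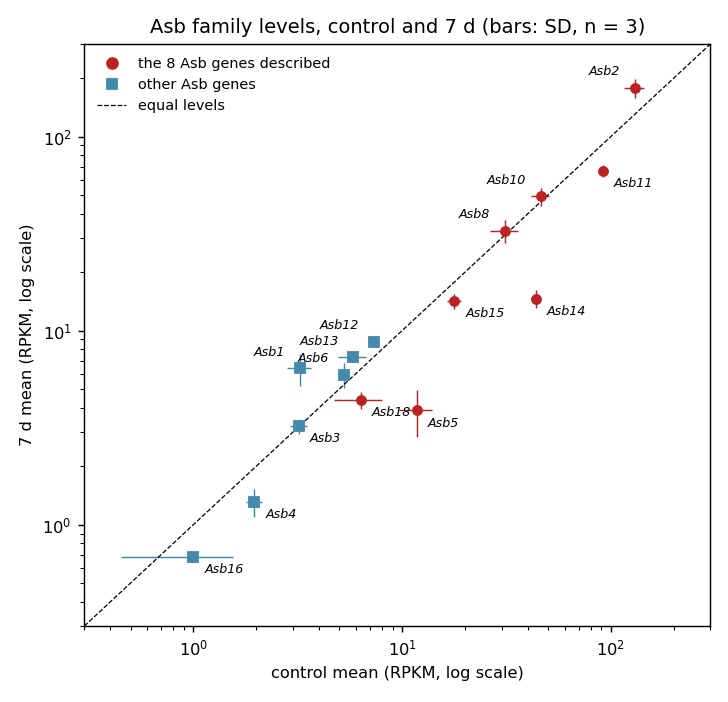
Mean level in control hearts (horizontal axis) and at 7 d (vertical axis) of the Asb genes in the table with a control mean of at least 0.5 RPKM, both in RPKM on log axes; bars are SDs of 3 hearts, circles the 8 genes described and squares other family members, and the dashed line marks equal levels. Asb14 and Asb5 lie farthest below the line and Asb1 farthest above it, with 6.39 RPKM at 7 d against 3.23 RPKM in control.

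The other Asb genes had control means of up to 7.31 ± 0.471 RPKM (Asb12), above Asb18 (6.35 ± 1.64 RPKM) and below the other 7 genes described. Of the 9 in the table, 6 were tested and 1, Asb1, rose, where 9.99% of all genes were called. Asb1, an adaptor known from the testis and from inflammatory signalling, had 2.81, 3.22 and 3.65 RPKM in control hearts and 6.77, 7.36 and 5.05 RPKM at 7 d. No 7 d heart overlapped the controls, and the log2 change was 0.88 ± 0.18 (SE, adjusted p = 0.00639 from limma). At 72 h Asb1 had 4.79, 3.88 and 4.27 RPKM and a log2 difference of 0.37 (adjusted p = 0.377). Asb4, known from vascular development, had a log2 difference at 7 d of -0.45 (adjusted p = 0.149), Asb13 of 0.31 (0.246), Asb12 of 0.24 (0.289), Asb6 of 0.15 (0.664) and Asb3 of 0.01 (0.974), and none of these passed the test in limma. Asb16 (mean 0.789 RPKM), Asb9 and Asb17 fell under the minimum, and Asb7 was not analysed here. At 12 h, 24 h and 72 h none of the 6 was called, with 0, 1 and 0 at an unadjusted p under 0.05. Of all 10557 genes, 1294, 972 and 1442 were under that threshold.

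The shared core of the ligase showed no called change. Cul5, the cullin scaffold, had 9.11 ± 0.901 RPKM in control and 8.92 ± 1.72 RPKM in 7 d hearts. The elongin genes Elob (197 ± 26.8 and 199 ± 15.4 RPKM) and Eloc (66.9 ± 12.7 and 71.0 ± 13.9 RPKM) also overlapped, as did Arih2, a ligase that acts with neddylated cullin 5 (15.2 ± 0.413 and 15.5 ± 0.635 RPKM). Rnf7, the RING subunit, had 44.1 ± 2.36 RPKM in control and 56.4 ± 7.74 RPKM in 7 d hearts, without overlap, and a log2 difference of 0.34 ± 0.17 (SE, adjusted p = 0.244 from limma). None of the 5 genes was called by limma at any time against control, and none had an unadjusted p under 0.05 in those comparisons. The median log2 difference of the 5 genes at 7 d was 0.03, that of all genes tested 0.03.

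Of 20 tested genes that switch cullins on or off, 2 rose at 7 d and none fell, a share close to the 9.99% of all genes called, and the median log2 difference was 0.11. Ube2f, the NEDD8-conjugating enzyme that acts with RNF7 on cullin 5, rose from 23.5 ± 2.97 to 32.1 ± 2.37 RPKM, a log2 change of 0.45 ± 0.11 (SE, adjusted p = 0.0227). Dcun1d2, which promotes neddylation of cullins, rose from 18.1 ± 1.63 to 26.7 ± 0.986 RPKM (log2 change 0.55 ± 0.14 SE, adjusted p = 0.0268). With Y-linked mRNA as a covariate neither was called (adjusted p = 0.151 for Ube2f and 0.147 for Dcun1d2), and Ube2f was not called without the first control heart (0.0986) nor without the first (0.0804) or second (0.0721) 7 d heart. Dcun1d2 was not called without any single control or 7 d heart, with adjusted p between 0.0507 and 0.105, nor with set as a covariate (0.157).

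Of 17 tested genes for other SOCS box proteins, 2 rose at 7 d and none fell, again close to the 9.99% of all genes, and the median log2 difference was 0.04. Wsb1, a WD repeat adaptor, had 8.81, 8.21 and 6.72 RPKM in control, 12.95, 13.51 and 11.71 RPKM in 12 h and 11.87, 11.03 and 13.50 RPKM in 7 d hearts. Both groups lay above the controls, with log2 changes of 0.66 ± 0.12 at 12 h (adjusted p = 0.0317) and 0.59 ± 0.12 at 7 d (SE, adjusted p = 0.00657, limma). The 12 h call of Wsb1 ended with Y-linked mRNA as a covariate (adjusted p = 0.0676), in the fit of the compared groups alone (0.215) and without either of control hearts 2 and 3 (0.123 and 0.139), 12 h hearts 2 and 3 (0.142 and 0.0633) or the first 72 h heart (0.0539). Wsb2 had a log2 change of 0.41 ± 0.12 at 7 d (SE, adjusted p = 0.0438), and lost its call with set (adjusted p = 0.0633) or Y-linked mRNA (0.282) as a covariate, in the compared groups alone (0.0632) and without any of 8 of the 15 hearts, among them every 7 d heart (adjusted p up to 0.165).

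Among the known substrates of ASB2, Flna and Flnc encode filamins, which cross-link actin, and Des encodes desmin. None of these genes passed the test at any time against control. Flnc, the muscle filamin, had 52.05, 70.51 and 74.50 RPKM in control and 77.00, 88.27 and 100.90 RPKM in 7 d hearts, without overlap. The log2 difference was 0.44 ± 0.18 (SE, adjusted p = 0.154 from limma). That of Des was 0.42 (adjusted p = 0.266) and of Flna -0.12 (0.521). At 12 h, by contrast, every heart was below the controls for Flnc, with a log2 difference of -0.55 (adjusted p = 0.250), and for Flna, with -0.36 (0.183), while that of Des was -0.01 (0.987). At an unadjusted p under 0.05, limma gave Flna at 12 h and 72 h and Flnc at 12 h and 7 d. Of all 10557 genes, 1294 (12 h), 1442 (72 h) and 2520 (7 d) were under that threshold. These are mRNA levels, while ASB2 acts on the proteins.

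Of 10 tested muscle adaptors of other cullins, Klhl34 rose and Klhl41 fell at 7 d, where 9.99% of all genes were called and 4.16% were lower. Klhl41, a kelch protein that stabilises nebulin in the sarcomere, went from 56.8 ± 7.37 to 35.7 ± 1.53 RPKM, a log2 change of -0.65 ± 0.10 (SE, adjusted p = 0.00129), and it was called in every alternative. Klhl34 went from 2.84 ± 0.637 to 4.70 ± 0.679 RPKM (log2 change 0.65 ± 0.16 SE, adjusted p = 0.0224), and lost its call with set (adjusted p = 0.0838) or Y-linked mRNA (0.201) as a covariate and without control heart 1 or 2 or 7 d heart 2 or 3. The median log2 difference of the 10 genes was 0.26.

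**Figure D4:**
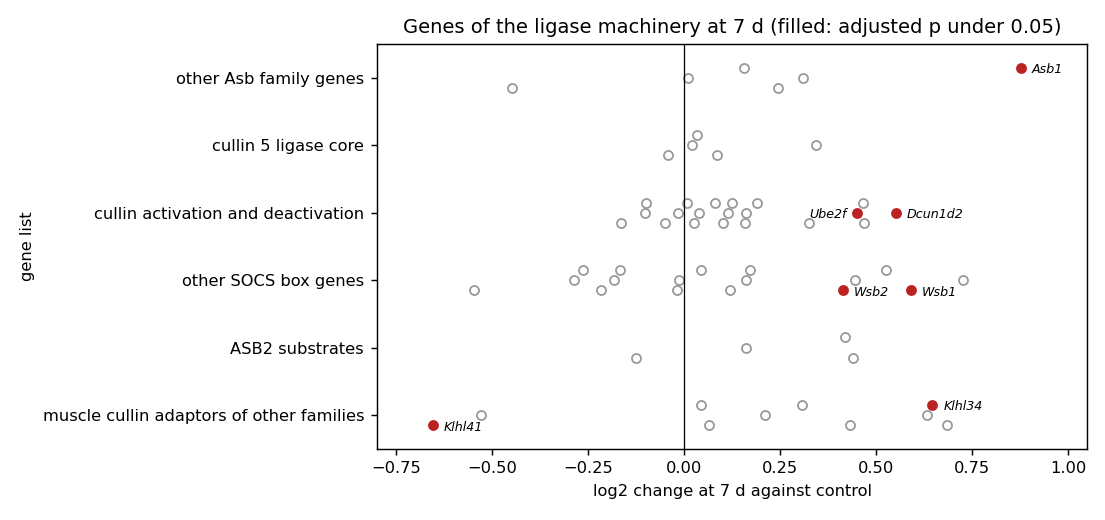
Log2 change at 7 d against control (horizontal axis) of each tested gene in 6 lists of ligase genes (vertical axis; points are spread within a row for legibility); filled red points passed an adjusted p of 0.05 in limma and are named. Among 62 genes, 7 passed, a share close to the 9.99% of all genes called, and of the 7 Klhl41 alone was lower (-0.65).

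Cell type markers were read from the same fit, where 9.99% of all genes were called at 7 d and 0.597% at 72 h. At 7 d none of the 7 fibroblast, 6 endothelial, 6 smooth muscle and pericyte or 5 tested skeletal fibre markers was called. Nor was any of the 4 atrial or 2 tested erythrocyte markers. Of 6 tested macrophage markers 1 was higher. Of 9 cardiomyocyte markers 2 were higher and 2 lower, and of 3 tested adipocyte markers 2 were lower at both 72 h and 7 d. The summed adipocyte markers were between 12.1 and 20.1 RPKM in control hearts and between 6.48 and 8.50 RPKM at 7 d. The summed atrial markers were between 62.1 and 152 RPKM in control, 62.4 and 533 RPKM in 12 h and 121 and 347 RPKM in 7 d hearts. The part of cell makeup in the Asb differences was not tested, and in ventricle RNA fewer cells of a type and less mRNA per cell cannot be told apart.

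**Figure D5:**
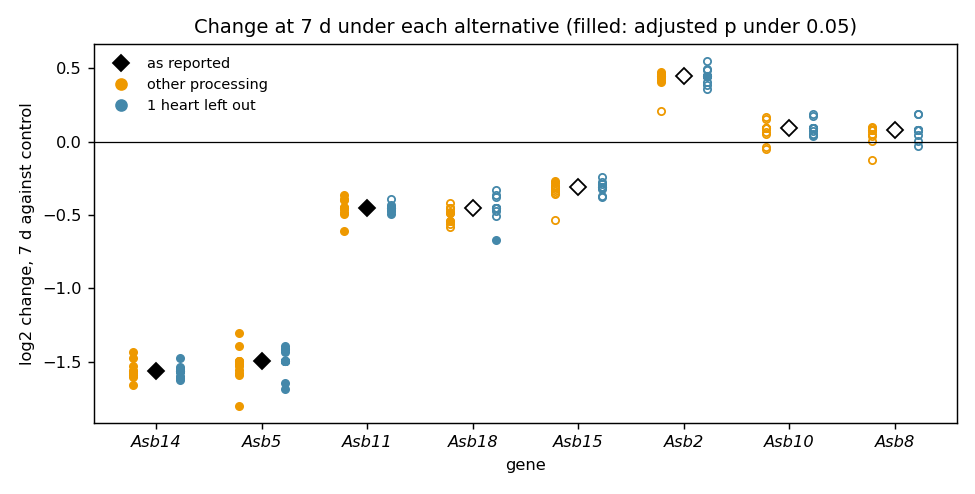
Log2 change at 7 d against control (vertical axis) of the 8 Asb mRNAs (horizontal axis) as reported (diamonds), under 11 other ways of processing (orange) and with each of the 15 hearts left out in turn (blue); filled symbols were called. Asb14 and Asb5 are called in all of them, from -1.66 to -1.44 and from -1.80 to -1.31.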

How the data were processed

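The 15 ventricle libraries were mapped by the authors to mm9, with Bowtie and TopHat named in the submitters' processing notes (versions not given in the sources used here). RPKM values of RefSeq genes were deposited by the authors in 1 table, each scaled to the length of constitutive coding sequence and to the uniquely mapping reads outside ribosomal and mitochondrial sequence. Every column of per-heart values was used. The table holds no totals of reads, so a count test could not be made. The limma p-values set a group difference against the spread between animals within groups.

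Genes averaging 1 RPKM or more over the hearts (10557) were fitted with limma 3.58.1 (R 4.3.3), with a mean-variance trend, on log2(RPKM + 0.5), which understates changes of low genes. All 5 groups entered the fit, with Benjamini-Hochberg adjustment over all genes in each of 7 comparisons. The procedure was tested on simulated data with changes at 7 d alone. These data held no effect of set or of Y-linked mRNA, so that test does not cover either. Groups came from the sample labels, and a Celf1 cassette that they also name is at odds with the stated CELF2 genotype and was not used.

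The 8 members, the lists and the tests were chosen with earlier results of these data known. Named are all members, all genes of the other Asb, cullin 5 core and ASB2 substrate lists, the called genes of the other lists, and the 3 genes most correlated with each of the 2 members with the largest change at 7 d. 1 listed gene is not reported here. Neighbouring genes were added after their values were seen. Alternatives were other pseudocounts (0.1 and 1), no minimum or 5 RPKM, median-ratio and upper-quartile scaling, set or Y-linked mRNA as a covariate, library quality weights, the compared groups alone and each heart left out. Library weights estimated gene by gene were added after the data were seen. Promoter sequences are from RefSeq (GRCm38.p6), where all 8 genes matched by gene identifier, and positions and 3′ untranslated regions from GENCODE vM1 (mm9). Motifs were searched in Python 3.11.15.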

Additional observations from a re-analysis of the deposited data

Results flagged for a closer look

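Asb5 mRNA moved in opposite directions at early and late times. All 3 hearts at 12 h lay above every control heart, with a log2 difference of 0.61, and all 3 hearts lay below every control heart at 72 h, with -0.49, and at 7 d, with -1.50. Only the 7 d difference was called by limma. The difference between these effects was not tested, and the 4 time points share the same control hearts. Groups of 3 hearts are too small for single hearts to be singled out as outliers.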

How the results depend on the processing

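Asb14 and Asb5 were called lower at 7 d in all 11 other fits and with each of the 15 hearts left out, and no called member changed sign. Of the 8 members, 5 were called at 7 d with either scaling between hearts, 6 with library quality weights and 5 with gene-by-gene weights. Of all genes, 12.1% were called with either scaling, 41.6% with quality and 31.4% with gene-by-gene weights. Leaving out a heart gave 2 to 4 members, where between 5.04% and 12% of all genes were called. At 72 h the count of 1 became 2 with set (4.69% of all genes called) and 0 with Y-linked mRNA as a covariate (0.0568%). It was 0 in the compared groups alone (0.00947%), and 5 with quality and 4 with gene-by-gene weights (49.4% and 37.5%). Without a heart it was 0 to 1, where between 0.0379% and 2.55% of all genes were called. At 12 h the count of 0 became 1 with set (7.31% of all genes), 3 and 2 with the weights (19% and 12.8%). From 24 h to 72 h the count of 0 became 1 with median-ratio scaling (0.957% of all genes), upper-quartile scaling (1.03%) or set (2.9%). It was 3 with either weights (29.4% and 15%), and 0 to 1 without a heart (0.00947% to 1.31%). From 72 h to 7 d the count of 2 became 1 in the compared groups alone (0.54% of all genes), and 7 and 5 with the weights (70.1% and 47.4%). Without a heart it was 1 to 2 (0.54% to 6.12% of all genes). The quality weights did not converge.

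For the lists at 7 d, the other Asb genes gave 0 calls with a minimum of 5 RPKM (Asb1 was then not tested) and 3 with either weights. The cullin 5 core gave 1 and the ASB2 substrates 2 with either weights. The cullin switches gave 0 with Y-linked mRNA, 7 and 6 with the weights, and 0 to 2 without a heart. Other SOCS box genes gave 1 with Y-linked mRNA, 7 with either weights, and 1 to 3 without a heart. Other adaptors gave 5 with either scaling, 1 with Y-linked mRNA, and 6 with either weights and in the compared groups alone. They gave 1 to 4 without a heart. Of all genes, 11.6% were called at 7 d with a minimum of 5 RPKM, 4.64% with Y-linked mRNA and 11% in the compared groups alone. Over the 6 lists together, the count of 1 at 12 h became 10 with set (7.31% of all genes). It became 0 with Y-linked mRNA and in the compared groups alone (0.18% and 0.104%), and 18 and 12 with the weights (19% and 12.8%). Without a heart it was 0 to 2 (0.0854% to 1.71%). At 72 h the count of 0 became 2 with set (4.69%), 23 and 19 with the weights (49.4% and 37.5%), of 62 genes. With the weights, counts of members and of lists stand against these high shares of all genes, and nothing is read from them. The causes were not tested. At 7 d the calls over all genes numbered 616 higher and 439 lower, 652 and 628 with median-ratio and 607 and 670 with upper-quartile scaling, 540 and 796 with set, and 281 and 209 with Y-linked mRNA. No paired analysis was possible because the labels give no replicate numbers that link the groups. The unknown depth limits statements on genes near 1 RPKM, and the spread of 3 hearts limits the rest.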
